A study of Rattus norvegicus with 6 samples.

Results

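Lipoxygenases and prostaglandin synthases are the enzymes that turn arachidonic acid into eicosanoids, the short-lived lipid signals of inflammation, vascular tone and tissue repair. The list held 10 genes of these branches, namely Alox15, Alox5, Alox12, Alox5ap, Ltc4s, Lta4h, Ptgs1, Ptgs2, Ptges and Ptgis, and 9 of the 10 had a row on the array, each gene with 1 row, among 26299 features, a feature being a transcript row or the mean of the rows of a gene symbol. No named row was that of Alox12, and its level was not analysed here. Only part of the rows could be named, so a gene without a named row may still be on the array. Here and below, a gene with a row means a gene with a named row. Alox15 was chosen by its own fall in LBW on these arrays, so its values stand as a description without a test, and the question put to the data was whether it moved alone among its neighbours. The other 8 genes were listed for their place in the pathway and were tested in a fit across the whole table.

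Phospholipases free arachidonic acid from membranes. Lipoxygenases add oxygen at one carbon of the chain, and the 5-lipoxygenase branch leads through an unstable epoxide to leukotrienes. Cyclooxygenases start the other main branch, whose common intermediate is handed to a separate synthase for every prostaglandin, for prostacyclin or for thromboxane. Alox15 encodes the 12/15-lipoxygenase, which also oxidises fatty acids still bound in membranes, and which is best known from macrophages, eosinophils and reticulocytes. In muscle, eicosanoids are known as products of both the fibres and the immune and vascular cells among them, and prostaglandins are known to act on myoblasts.

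The samples were skeletal muscle, soleus with gastrocnemius, of male Wistar rat pups at 1 day of age. Of the 6 pups, 3 were of lower birth weight (LBW, percentiles 5 to 25 of birth weight) and 3 of average birth weight (ABW, the newborn controls). The control range was given as percentiles 25 to 75 in one label and as 50 to 75 in the protocol and methods. No diet, drug or gene was altered in either group. The pups differed in birth weight by natural variation, and the litter each came from was not given in the sources used here. Each pup was 1 biological replicate on 1 single-colour array. Array medians lay between 8.70 and 8.76 log2 units of signal. The 7 skeletal muscle markers with a row averaged 13.86 to 14.00 log2 units in every pup, and none passed the threshold of the methods, an unadjusted p under 0.05 with a change of at least 1.5-fold. Markers of bone and neutrophils stood far higher in LBW 1 and LBW 3 than in the other pups, and values that touch the enzymes are given beside them.

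Alox15 (NM_031010) had a log2 signal of 9.52, 9.95 and 8.06 in LBW 1, 2 and 3 and of 11.20, 11.47 and 10.27 in ABW 1, 2 and 3. All LBW pups lay below all ABW pups, LBW 3 was the lowest of all, and the nearest pair, LBW 2 and ABW 3, stood 0.32 log2 units apart. LBW averaged 9.18 ± 0.99 (SD, n = 3) and ABW 10.98 ± 0.63 (SD, n = 3), a log2 difference of -1.81, so that the ABW signal was 3.49-fold the LBW signal. Of all features tested, 3 had a more negative difference. The signal of Alox15 also varied widely within each group, with a pooled SD of 0.83, and 99.4% of features had a smaller one. The difference was -1.25 without LBW 3 and -2.19 without LBW 2. In whole muscle, fewer cells of a type and less RNA per cell cannot be told apart.

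Alox5 (NM_012822) encodes 5-lipoxygenase, which makes the precursor of all leukotrienes. Its log2 signal was 8.80, 8.55 and 8.54 in the LBW pups and 7.70, 8.45 and 8.69 in the ABW pups. The groups overlapped, and ABW 1 stood apart as the lowest pup. LBW averaged 8.63 ± 0.15 (SD, n = 3) and ABW 8.28 ± 0.51 (SD, n = 3), a log2 difference of 0.35 (95% interval -0.26 to 0.96) with an adjusted p of 0.622 in limma, and without ABW 1 the difference was 0.06.

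Alox5ap (NM_017260) encodes the membrane protein that presents arachidonic acid to 5-lipoxygenase. Its log2 signal was 11.50, 11.58 and 11.55 in the LBW pups against 11.16, 11.93 and 11.91 in the ABW pups. The LBW pups lay inside the range of the ABW pups, and ABW 1 was again the lowest. The log2 difference was -0.13 (95% interval -0.63 to 0.38) with an adjusted p of 0.849 in limma. Without ABW 1 the log2 difference was -0.38, which did not reach 1.5-fold.

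Lta4h (NM_001030031) and Ltc4s (NM_053639) take the unstable epoxide in separate directions, to leukotriene B4 and to the cysteinyl leukotrienes. Lta4h signal was 11.82, 11.69 and 11.46 log2 units in the LBW pups and 11.42, 11.74 and 11.70 in the ABW pups, with no separation. Its log2 difference was 0.04 (95% interval -0.29 to 0.36), with an adjusted p of 0.937 in limma. Ltc4s signal was 7.08, 7.30 and 7.15 log2 units in the LBW pups and 7.23, 7.69 and 7.22 in the ABW pups. ABW 2 alone was high, and LBW 2 lay above the other ABW pups. The log2 difference of Ltc4s was -0.21 (95% interval -0.57 to 0.16), with an adjusted p of 0.629 in limma.

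Ptgs1 (NM_017043) encodes the cyclooxygenase that most tissues make all the time. Its log2 signal was 8.62, 8.29 and 8.34 in the LBW pups and 8.65, 8.57 and 8.61 in the ABW pups. The ABW pups were tightly grouped and LBW 1 lay among them. The log2 difference was -0.19 (95% interval -0.46 to 0.08) with an adjusted p of 0.536 in limma.

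Ptgs2 (NM_017232) encodes the cyclooxygenase induced by growth factors and inflammatory signals. Its log2 signal was 7.95, 8.81 and 8.16 in LBW 1, 2 and 3 and 8.58, 8.74 and 9.01 in the ABW pups. LBW 1 and LBW 3 lay below every ABW pup, while LBW 2 lay above ABW 1 and ABW 2. LBW averaged 8.31 ± 0.45 (SD, n = 3) and ABW 8.78 ± 0.22 (SD, n = 3), a log2 difference of -0.47 (95% interval -1.04 to 0.10) with an adjusted p of 0.481 in limma. Ptgs2 did not pass the threshold in all 6 pups or without any one other pup, and passed it when LBW 2 was left out, with a log2 difference of -0.72. In LBW 2 alone against the ABW pups the log2 difference was 0.03.

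Ptges (NM_021583) encodes the inducible synthase that completes prostaglandin E2. Its log2 signal was 10.08, 10.17 and 10.48 in the LBW pups and 10.00, 10.48 and 10.82 in the ABW pups. All 3 LBW pups lay within the ABW range. The log2 difference was -0.19 (95% interval -0.73 to 0.34) with an adjusted p of 0.771 in limma, and without ABW 1, the lowest pup, the difference was -0.41.

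Ptgis (NM_031557) encodes prostacyclin synthase, whose product relaxes vessels and restrains platelets. Its log2 signal was 11.16, 10.71 and 11.14 in the LBW pups and 10.66, 10.62 and 10.53 in the ABW pups. The groups did not overlap, but LBW 2 lay only 0.05 log2 units above ABW 1, while LBW 1 and LBW 3 stood well above. The log2 difference was 0.40 (95% interval 0.06 to 0.73), a 1.32-fold higher signal in LBW, with an SD of 0.25 in LBW and 0.07 in ABW (n = 3 each). The adjusted p was 0.348 in limma, and the 2-sided exact permutation test gave p = 0.1, the smallest that 3 pups against 3 allow. In LBW 2 alone against the ABW pups the log2 difference was 0.11. The pups with the most Ptgis signal were those with the most bone and neutrophil marker signal. The 7 bone markers with a row averaged 11.49, 8.12 and 12.40 log2 units in LBW 1, 2 and 3 against 7.09 to 7.50 in the ABW pups. The 6 neutrophil markers averaged 10.01, 8.73 and 9.82 against 7.80 to 8.04. Their part in the Ptgis difference was not tested.

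**Figure D1:**
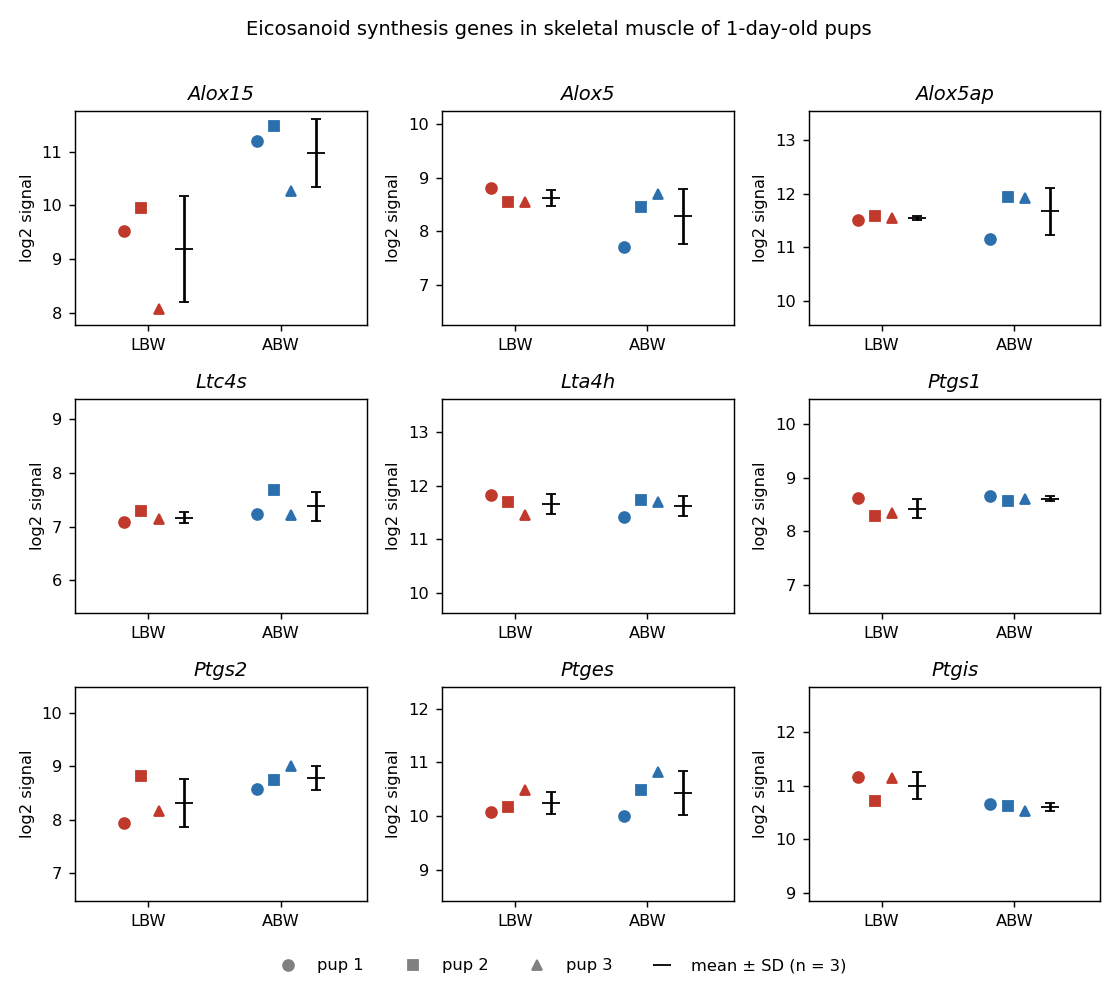
Log2 signal (y axis) of the 9 genes with a row in each pup, LBW in red and ABW in blue, with the group mean ± SD (n = 3) beside the points. Every panel spans 4 log2 units. The groups are apart in Alox15, with LBW 3 lowest, and narrowly in Ptgis, and overlap in the other 7 genes.

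None of the 8 genes other than Alox15 passed the threshold of the methods, and none had an adjusted p under 0.05. The share of all features that passed it was 4.27%, with 2.38% higher and 1.89% lower in LBW, and no feature of the whole table had an adjusted p under 0.05 in limma. The smallest adjusted p over all features was 0.214, although 3250 features had an unadjusted p under 0.05. One of the 8 genes, Ptgis, or 12.5%, had groups without overlap, near the 17.4% of all features (7.27% higher and 10.1% lower in LBW). The direction of the 8 genes was mixed. Of the 8, 3 had the higher mean in LBW and 5 in ABW, and their median log2 difference was -0.16 against -0.02 over all features. The intervals held 0 in 7 of the 8. They do not show that the genes were equal in both groups. Their lower ends ran down to -1.04, for Ptgs2, and the upper ends ran from 0.08 to 0.96. All 8 intervals lay above the measured Alox15 difference of -1.81. The difference between Alox15 and the other genes was not tested, since Alox15 was chosen for it. All 9 genes, Alox15 included, stayed in the table when its dimmest 25% of rows were left out.

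ABW 1 was the lowest pup in 4 of the 8 genes, Alox5, Alox5ap, Lta4h and Ptges. Alox15 did not share this, with 11.20 log2 units in ABW 1. The macrophage markers with a row, 8 genes, averaged 10.89 log2 units in ABW 1, 11.27 in ABW 2, 11.43 in ABW 3 and 11.06 to 11.13 in the LBW pups, and none of the 8 passed the threshold. The 9 mast cell markers averaged 9.66 in ABW 1, 10.06 in ABW 2, 10.48 in ABW 3 and 9.77 to 9.94 in the LBW pups. ABW 1 was thus the lowest pup in the mean of both lists. Of the mast cell markers, only Fcer1a and Mcpt1 were themselves lowest in ABW 1. Fcer1a stood far lower there (5.88) than in the other pups (7.16 to 8.59). Of the 9, 7 or 77.8% had the lower mean in LBW, beside 55.6% of all features, with a median log2 difference of -0.19. By the threshold none of the 9 was lower in LBW and 1, Mcpt1, was higher, against the direction of most of the list. Its log2 difference was 0.77 (adjusted p = 0.276 in limma), and 1 of 9 is 11.1% beside 2.38% of all features. The part of these cells in the low signal of the leukotriene genes in ABW 1 was not tested.

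The wider pathway was counted over 62 genes in 6 groups, of which 45 had a row. Of the 45, 5 passed the threshold, or 11.1% beside 4.27% of all features. In LBW 4 of them were lower (8.89% beside 1.89%) and 1 higher (2.22% beside 2.38%). The adjusted p was 0.214 or above for all 45. A lower mean in LBW was found in 32, or 71.1% beside 55.6% of all features, and the median log2 difference of the 45 was -0.07. The 6 groups were chosen with earlier results of these data known, so their shares here and below are descriptions.

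Among genes of arachidonate release and re-esterification, 2 of 11 fell by that threshold, or 18.2% beside 1.89% of all features, and none rose. Pla2g4a (NM_133551), the calcium-dependent cytosolic phospholipase that supplies arachidonic acid to both branches, had a log2 signal of 10.08, 10.24 and 10.48 in the LBW pups and 10.68, 10.84 and 11.17 in the ABW pups. All LBW pups lay below all ABW pups, and the log2 difference was -0.63 (SE 0.16, adjusted p = 0.279 in limma). Pla2g2d (NM_001013428), a secreted phospholipase, had a log2 signal of 9.21, 9.81 and 9.72 in the LBW pups and 9.88, 10.97 and 10.65 in the ABW pups. LBW 2 and ABW 1 lay close together, and the log2 difference was -0.92 (SE 0.30, adjusted p = 0.328 in limma). Pla2g4a was no longer called without LBW 1 or without ABW 3, and Pla2g2d without LBW 1, ABW 2 or ABW 3 or by the methods' unmoderated test.

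None of the 6 other lipoxygenase and leukotriene genes passed. The largest difference there was that of Dpep1 (NM_053591), a dipeptidase that trims leukotriene D4, with a log2 difference of -0.40 and an adjusted p of 0.711 in limma. Among the 4 other prostaglandin and thromboxane synthases, 1 rose, or 25% beside 2.38% of all features. Tbxas1 (NM_012687), thromboxane synthase, which competes with prostacyclin synthase for the same intermediate and is best known from platelets and macrophages, had a log2 signal of 8.71, 9.25 and 9.18 in the LBW pups and 8.30, 8.45 and 8.57 in the ABW pups. All LBW pups were higher, and the log2 difference was 0.60 (SE 0.16, adjusted p = 0.292 in limma). It was no longer called without LBW 2, LBW 3 or ABW 1. The 4 platelet markers with a row averaged 7.55 to 7.69 log2 units in LBW and 7.79 to 8.11 in ABW, with differences between -0.67 and -0.01. Of these 4, 1 fell by the threshold, or 25% beside 1.89% of all features. It was Ppbp, a platelet chemokine (log2 difference -0.67, adjusted p = 0.377 in limma). Ppbp was not called by the methods' unmoderated test and lay among the dimmest 25% of rows. Its log2 signal was 5.69 to 5.71 in the LBW pups and 6.98, 6.15 and 5.97 in ABW 1, 2 and 3. The part of platelets in the Tbxas1 difference was not tested.

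Of the 7 genes of transport and breakdown, 1 fell, or 14.3% beside 1.89% of all features. Hpgd (NM_024390), the dehydrogenase that begins the inactivation of prostaglandins, had a log2 signal of 9.58, 9.67 and 8.74 in the LBW pups and 9.90, 10.31 and 10.72 in the ABW pups. LBW 3 was the lowest pup, as for Alox15, and the log2 difference was -0.98 (SE 0.31, adjusted p = 0.315 in limma). It was no longer called without ABW 3 or by the methods' unmoderated test.

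Of the 12 receptors, 1 fell, or 8.33% beside 1.89% of all features. Cysltr1 (NM_053641), a receptor of the cysteinyl leukotrienes, had a log2 signal of 6.69, 6.56 and 6.59 in the LBW pups and 7.11, 7.33 and 7.19 in the ABW pups. The groups were tight and far apart for their spread, with a log2 difference of -0.60 (SE 0.10, adjusted p = 0.214 in limma), and the call was lost without LBW 2 or without ABW 2. The change was barely past 1.5-fold. None of the 5 genes of the cytochrome P450 branch, which makes epoxides and omega-hydroxylated fatty acids, passed, and the largest difference was -0.29 for Ephx2 (NM_022936), soluble epoxide hydrolase. In LBW 2 alone against the ABW pups, the log2 differences were -0.69 for Pla2g2d, -0.66 for Pla2g4a, 0.80 for Tbxas1, -0.64 for Hpgd and -0.65 for Cysltr1.

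**Figure D2:**
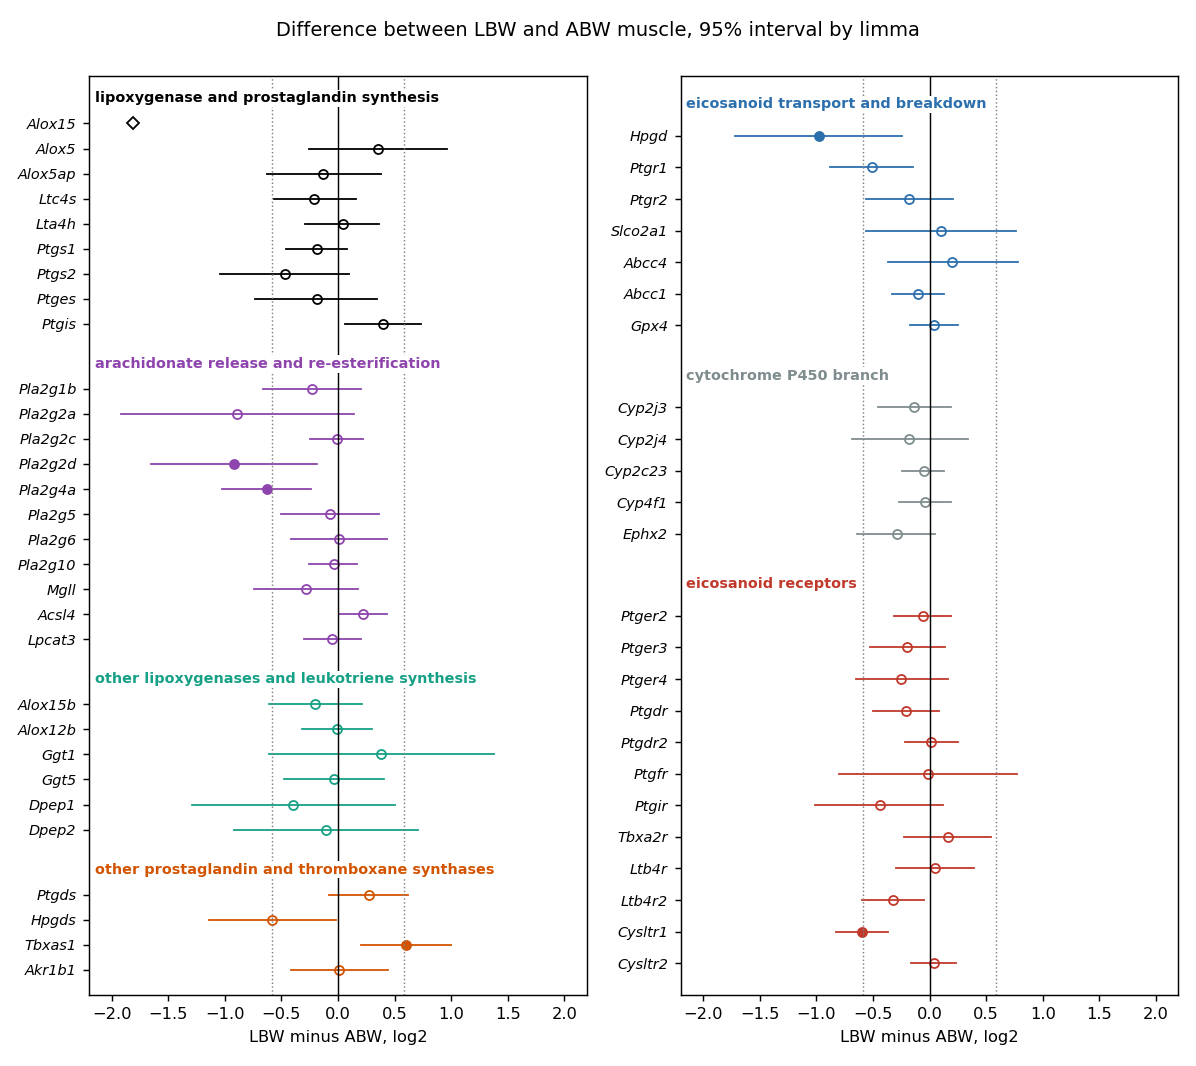
Log2 difference, LBW minus ABW (x axis), of the 9 synthesis genes and the 45 pathway genes (y axis), with the 95% interval of limma as a line. Filled points passed an unadjusted p under 0.05 and 1.5-fold, dotted lines mark 1.5-fold, and Alox15, a diamond without an interval, lies at -1.81, left of every interval of the other 8 synthesis genes.

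The profile of Alox15 over the 6 pups was compared with that of every other named gene, each centred on its own mean, by the root mean square difference. The nearest of 9626 were RT1-Db1 (0.405 log2 units), a class II histocompatibility chain of antigen-presenting cells, Reep6 (0.448), an endoplasmic reticulum shaping protein, Ifit1 (0.478), an interferon-induced antiviral protein, Acvr1c (0.525), an activin receptor known from fat tissue, and Pdia5 (0.549), a protein disulfide isomerase. RT1-Db1 signal was 8.05, 8.67 and 6.42 log2 units in the LBW pups and 8.92, 9.55 and 9.21 in the ABW pups. Like Alox15 it was lowest in LBW 3 and highest in ABW 2. Its groups did not overlap, while those of Reep6 and Acvr1c did. The groups of Ifit1 and Pdia5 were only just apart, with LBW 2 at 7.45 and ABW 3 at 7.48 in Ifit1. In Pdia5, LBW 2 had 11.28 and ABW 1 had 11.29. Of all features, 17.4% had groups without overlap. These genes were picked by likeness to Alox15, whose own groups do not overlap, so their separation is a description.

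Of the other 8 synthesis genes, Ptgs2 had the smallest difference, 0.959 log2 units at rank 528, and Alox5 and Ptgis the largest, 1.338 and 1.333 at ranks 9203 and 9178. A gene with the same value in all pups would lie at 1.128, so the measure reflects the size of a gene's variation as well as its shape. The ranking is a description, since it rests on 6 pups and on the contrast by which Alox15 was chosen.

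**Figure D3:**
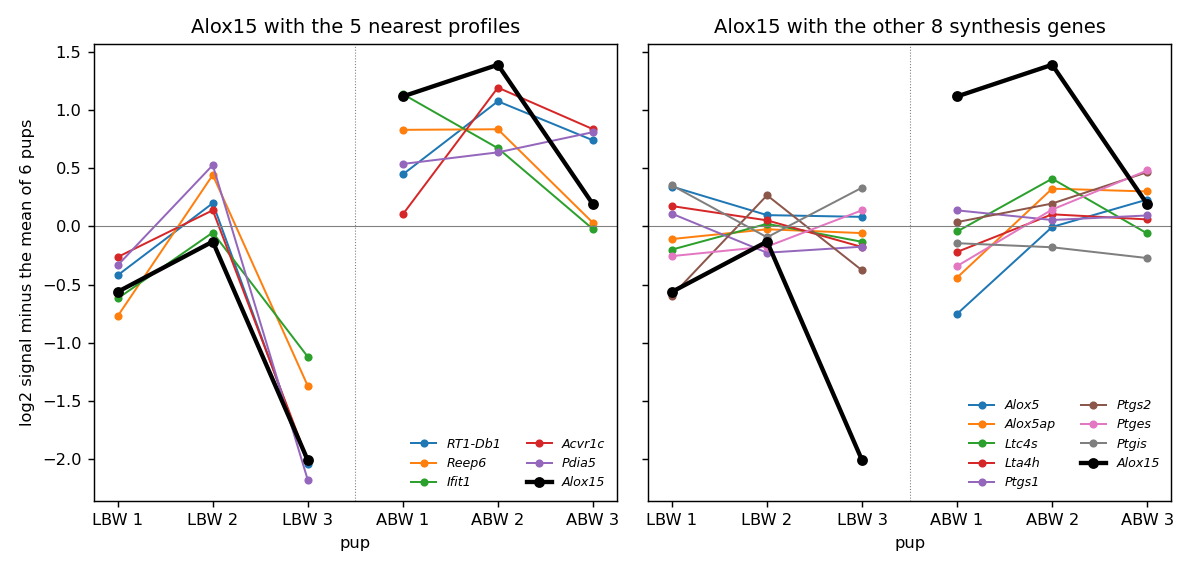
Log2 signal minus the mean of the 6 pups (y axis) for every pup (x axis), with Alox15 in black beside its 5 nearest profiles (left) and the other 8 synthesis genes (right). Lines join the pups of a group only to trace a gene, since pups have no order. The nearest profiles share the low value of LBW 3, where the 8 synthesis genes stay within 0.5 log2 units of their mean.

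Of the 8 macrophage markers 5 had the lower mean in LBW, with a median log2 difference of -0.05 and a range of -0.51 to 0.14. The 3 eosinophil markers averaged 5.93 to 6.06 log2 units in LBW and 5.86 to 6.11 in ABW, with fully overlapping pups. Among them, Ccr3 and Il5ra were so dim that the filter on dim rows left them out. A fall in these markers could hardly be seen, so the list does not show that eosinophils were unchanged. The 6 erythroid markers, which would carry reticulocytes, averaged 11.03, 11.65 and 10.61 in LBW 1, 2 and 3 and 11.73, 11.42 and 11.05 in the ABW pups. LBW 3 was the lowest and LBW 2 the highest LBW pup there too, as in Alox15. Unlike in Alox15, LBW 2 lay above ABW 2 and ABW 3. None of the 6 passed the threshold, with log2 differences from -0.87 to 0.09.

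Alox15 is a known target of interleukin-4 and interleukin-13. The 11 genes of that response averaged 8.42, 8.45 and 8.26 log2 units in the LBW pups and 8.50, 8.76 and 8.77 in the ABW pups. Their mean was lower in every LBW pup than in any ABW pup. LBW 3 had the lowest mean only through Ccl24, with 7.97 log2 units there and 9.91 and 9.98 in LBW 1 and LBW 2. Ccl24 did not pass the threshold (log2 difference -1.14). Of the 11, 8 or 72.7% had the lower mean in LBW, beside 55.6% of all features, with a median log2 difference of -0.22. By the threshold 1 fell, or 9.09% beside 1.89% of all features, namely Ccl11, the eosinophil attractant eotaxin (log2 difference -0.97, SE 0.11, adjusted p = 0.214 in limma). The list was chosen with earlier results of these data known, so these shares are descriptions. The marker Il4 itself had 5.12 to 5.19 log2 units in LBW and 5.14 to 5.30 in ABW and lay among the dimmest 25% of rows.

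The marker list with the most negative median was that of adipocytes. Its 8 genes averaged 11.34, 11.35 and 10.35 log2 units in LBW 1, 2 and 3 and 11.20, 12.30 and 12.16 in the ABW pups. All 8 had the lower mean in LBW, with a median log2 difference of -1.03, and LBW 3 was the lowest pup, but ABW 1 lay below LBW 1 and LBW 2 although its Alox15 signal was among the highest. By the threshold 2 of the 8 fell, or 25% beside 1.89% of all features, Lep, the hormone leptin (log2 difference -1.57, adjusted p = 0.349 in limma), and Pparg, the main regulator of fat cell formation (-1.20, adjusted p = 0.302 in limma). Neither was called by the methods' unmoderated test. Bone and neutrophil markers ran the other way. In LBW 2 alone, the LBW pup with the least of both, the Alox15 signal was 1.03 log2 units below the ABW mean, beside 1.81 for all LBW pups. The part of these cell types in the Alox15 difference was not tested.

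**Figure D4:**
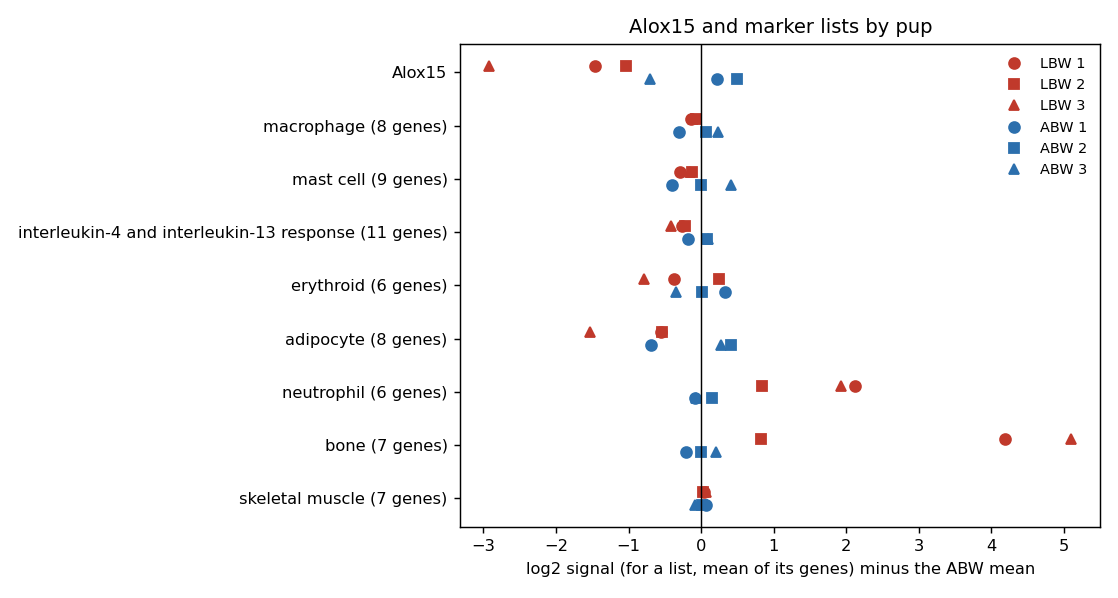
Alox15 and 8 marker lists (y axis, with the number of genes with a row) as log2 signal minus the ABW mean (x axis), each point a pup, LBW in red and ABW in blue. LBW 1 and LBW 3 stand to the right in the bone and neutrophil lists, LBW 3 stands to the left in Alox15 and the adipocyte list, and skeletal muscle markers show no separation.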

How the data were processed

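RNA of 3 LBW and 3 ABW pups was hybridised by the authors to NimbleGen single-colour arrays (5 probes per transcript), and the deposited log2 signal per transcript was used. RMA is named in the submitters' processing notes. The background correction and its settings were not given in the sources used here, and there are no detection calls. With 3 arrays per group, their number limits the precision. Rows were named through RefSeq accessions (9747 of 26419). Rows of a symbol were averaged, giving 26299 features. LBW and ABW were compared by moderated linear models (lmFit and eBayes of limma 3.58.1, R 4.3.3; all 6 arrays, 2-sided, no covariates), with Benjamini-Hochberg adjustment over all features. The pipeline was tested on simulated data. Called means an unadjusted p under 0.05 and a fold of at least 1.5. The genes, pathway lists and marker lists were chosen with earlier results of these data known. Named are all listed genes with a row, pathway genes past the threshold (or the 1 with the largest difference), markers called in the direction of Alox15, and its 5 nearest profiles. Il4, Ccl24, Fcer1a, Mcpt1, Ccr3 and Il5ra were added after their values were seen. The alternatives were 2 normalizations, 1 filter on dim rows, other variance models, array weights, a replicate block, an unmoderated Student test, a higher fold, every pup left out in turn, and LBW 2 alone, which was added after seeing the data. The methods name the Student test or ANOVA for the study in general and no test for the arrays.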

Additional observations from a re-analysis of the deposited data

How the results depend on the processing

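Over normalization, filtering, variance model and array weights, 1114 to 1346 rows passed the threshold (main 1131), none of the 8 enzymes other than Alox15 did, 4 to 6 pathway genes did (main 5), and the Alox15 difference was -1.82 to -1.68 with medians of the pups included. Array weights turned the pathway calls to 0 higher and 5 lower. An unmoderated Student test called 586 rows and 3 pathway genes (not Pla2g2d or Hpgd), and a fold of at least 2 called 336 rows and 0 pathway genes. Leaving out 1 pup at a time gave 806 to 1555 rows, 0 to 1 enzymes, 3 to 7 pathway genes and -2.19 to -1.25 for Alox15. Over these fits the sign turned in Lta4h (-0.07 to 0.13), in Alox5ap (-0.38 to 0.01) and, by less than the rounding, in Ptges (-0.41 to 0.00). LBW 2 alone against the ABW pups, assumed to vary as they do, gave 1057 rows, 0 enzymes, 3 pathway genes, -1.03 for Alox15 and 0.03 for Ptgs2. The causes were not tested. Same-numbered pups did not deviate together (r of 0.087, 0.103 and 0.055), and the numbers do not pair the pups. With the replicate number as a block, 1236 rows, 0 enzymes and 6 pathway genes passed and Alox15 stayed at -1.81.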
